A study of Mus musculus with 6 samples.

Results

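The mitochondrial ribosomal protein (MRP) genes of C2C12 cells, a mouse line of myoblasts, were compared between MSTN-KO and WT libraries. Members were all genes whose GENCODE M21 symbol starts with *Mrpl* or *Mrps* and a number. The annotation held 83 such symbols, 78 of protein-coding genes and 5 of pseudogenes. The deposited files held 75 of the 14548 genes as members, all protein-coding, and all 75 were among the 10837 genes tested. *Mrpl33*, *Mrps6* and *Mrps23* had no identifier matched in the files and were not analysed here, and neither were the 5 pseudogenes.

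Mitochondria carry their own ribosome, which translates the few proteins encoded by mitochondrial DNA (mtDNA), all of them core parts of the respiratory chain and ATP synthase. Every protein of this ribosome is encoded in the nucleus, made in the cytosol and imported, while its rRNA comes from mtDNA. Many of its proteins descend from bacterial ribosomal proteins and others are found only in mitochondria. Skeletal muscle is rich in mitochondria, and myoblasts are known to build up oxidative capacity as they differentiate.

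The samples were 3 libraries of wild-type cells (WT) and 3 of the line C11, in which CRISPR/Cas9 was directed at exon 3 of *Mstn* (MSTN-KO). No further treatment is given for either group, and the cells grew in basal medium with fetal bovine serum. All MSTN-KO libraries come from that single line, so loss of *Mstn* and other differences between C11 and the WT cells cannot be told apart. In the labels C11 also stands as the strain of WT cells, and the groups were taken from the sample titles. The sources do not say whether the replicates were separate cultures, so p-values measure the spread between these libraries, which may be technical.

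*Mstn*, the targeted gene, was at 0.0211, 0 and 0.0399 FPKM in WT and at 0.0269, 0.0586 and 0.0390 FPKM in MSTN-KO, too low in both groups to check the labels. FPKM is the number of fragments per kilobase of exon and per 1000000 fragments mapped. The summed FPKM ran from 723705 to 764524 in WT and from 856314 to 999579 in MSTN-KO, and 13151 to 13478 genes were above 0 in a library. Low values put the depth of the other 5 libraries at 0.877 to 1.11 times that of WT replicate 1, with no absolute depth. The myoblast genes *Myod1* (90.8 to 167 FPKM) and *Des* (325 to 807 FPKM) were expressed in all 6 libraries. The 6 of 7 myoblast markers found in the files summed to 1030 to 1370 FPKM in WT and to 570 to 696 FPKM in MSTN-KO, of which *Des*, *Chrna1* and *Myod1* made up most. *Des* fell from a mean of 710 to 363 FPKM (limma adjusted p = 0.000995). *Chrna1* fell from 350 to 157 FPKM (limma adjusted p = 8.49e-05) and *Myod1* from 145 to 96.1 FPKM (limma adjusted p = 0.00986). *Pax7*, a marker of muscle stem cells in that list, rose from a mean of 1.02 to 2.19 FPKM (limma adjusted p = 0.0415). *Myf5*, at 9.49 to 14.7 FPKM, and *Musk* did not pass. Adipocyte markers summed to 5.68 to 9.93 FPKM and bone and cartilage markers to 8.19 to 12.2 FPKM. *Pparg* made up most of the adipocyte sum and did not pass (limma adjusted p = 0.2). *Fabp4* had a mean of 0.241 FPKM in WT and 1.24 FPKM in MSTN-KO. It reached the 1 FPKM needed for testing only in MSTN-KO libraries, so its test is not used here. The single fibroblast marker in the files was at most 0.755 FPKM, the single immune marker at most 2.39 FPKM, and the 3 measured endothelial markers summed to at most 0.112 FPKM. In bulk RNA, fewer cells of a type and less RNA per cell cannot be told apart.

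The MRP genes were slightly higher in MSTN-KO as a family. Their median log2 fold change was 0.24, against -0.001 over all tested genes, and 64 of 75 had a higher mean log2 value in MSTN-KO, against 49.9% of all tested genes. Of the 8214 tested genes with a mean FPKM of at least that of the lowest member, 4496 were higher, with a median of 0.04. Few of the members passed the test alone. Of the 75, 8 rose (10.7%), where 8.78% of all tested genes did, and 2 fell (2.67%), where 8.96% of all tested genes did. A gene was said to rise or fall where limma's Benjamini-Hochberg adjusted p over all 10837 tested genes was under 0.05. The count of rises was thus close to the background, and the common shift of the members was small. Fold changes are differences of log2(FPKM + 1), MSTN-KO minus WT.

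The shift was narrow. The middle 50% of the members lay between 0.07 and 0.31, the full range was -0.77 to 0.62, and 46 of 75 lay between 0.1 and 0.4. The SD of the fold changes was 0.237 over the members and 0.48 over all tested genes, which include genes of low level. The middle 50% of the 8214 genes at or above the level of the lowest member lay between -0.19 and 0.24. The study called DEGs at a log2 change beyond 1 or -1 with a p under 0.05, taken here as an unadjusted p. By that rule 0 MRP genes passed in either direction in the limma fit, where 1.21% and 2.30% of all tested genes were called. At an unadjusted p under 0.05 alone, 24 members were higher, against 16.3% of all tested genes, and 2 lower, against 16.2%. The groups did not overlap for 31 members that were higher in MSTN-KO (41.3%), against 19.3% of all tested genes, and for 2 that were lower, against 18.1%. The adjusted p of those 31 ran from 0.0085 to 0.323.

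**Figure D1:**
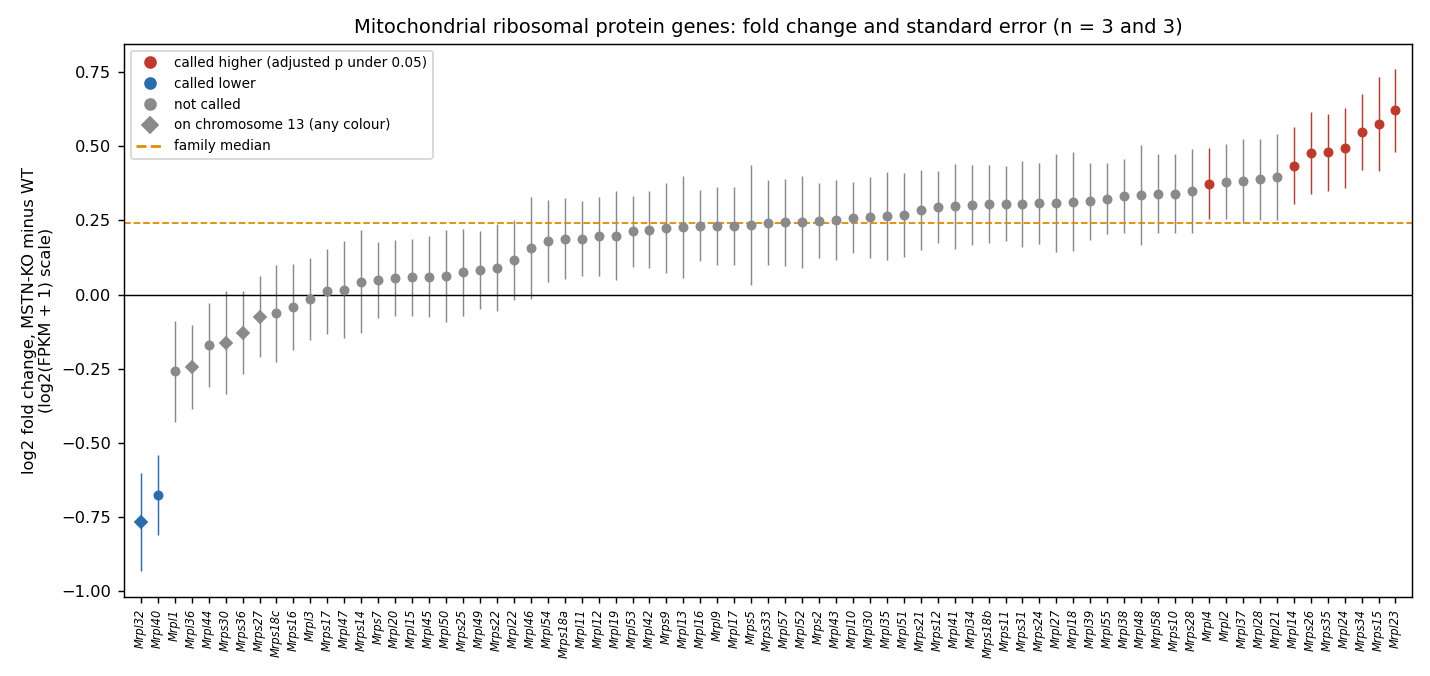
Log2 fold change (MSTN-KO minus WT, log2(FPKM + 1) scale) of each of the 75 MRP genes in rising order, with the standard error of the limma fit as bars. Red points passed the test as higher (8 genes), blue as lower (*Mrpl32* and *Mrpl40*) and grey did not pass, diamonds lie on chromosome 13, and the dashed line is the family median of 0.24.

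The libraries of 1 group differed in this shift. Relative to the WT mean of each gene, the median member was at -0.07, -0.01 and 0.08 on the log2 scale in WT replicates 1, 2 and 3. It was at 0.23, 0.08 and 0.38 in MSTN-KO replicates 1, 2 and 3. MSTN-KO replicate 2 was therefore level with WT replicate 3, while the median of all tested genes stayed between -0.02 and 0.04 in the 6 libraries. Within MSTN-KO, replicate 2 held the lowest value for 60 of 75 members (39.2% of all tested genes) and replicate 3 the highest for 63 (43.9% of all tested genes). The summed FPKM of the MSTN-KO libraries had the same order, lowest in replicate 2 and highest in replicate 3. In WT the orders matched only in part. Replicate 3 had the highest summed FPKM and the highest value for 46 members (34.6% of all tested genes). Replicate 2 had the lowest summed FPKM, but replicate 1 held the lowest value for 38 members (31.0% of all tested genes).

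**Figure D2:**
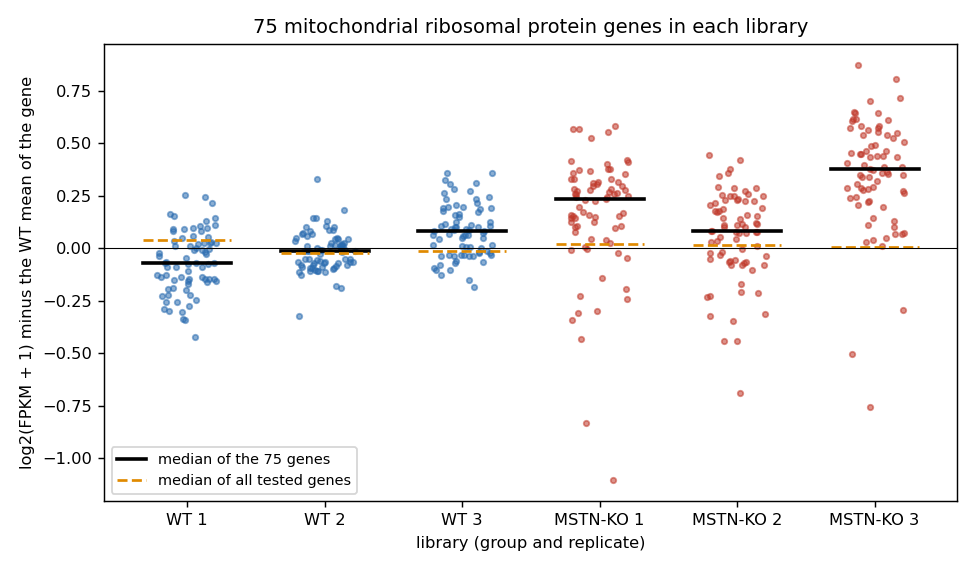
Each point is 1 of the 75 MRP genes in 1 library, as log2(FPKM + 1) minus the WT mean of that gene. Black lines are medians of the 75 genes, from -0.07 to 0.08 in WT and from 0.08 to 0.38 in MSTN-KO, and dashed lines are medians of all tested genes.

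The summed FPKM of the 75 members was 5676, 5744 and 6085 in WT replicates 1 to 3 and 6777, 6178 and 7934 in MSTN-KO replicates 1 to 3. As a share of all FPKM in the library it was 0.751%, 0.794% and 0.796% in WT and 0.765%, 0.721% and 0.794% in MSTN-KO. The sums did not overlap between the groups, and the shares did. When every library was scaled to a sum of 1000000, the family median became -0.04 and 30 of 75 members were higher. Under that scaling 1 member rose, where 3.25% of all genes tested did, and 6 of 75 fell, where 21.9% did. That scaling moved the median of all tested genes to -0.26, and the family median still lay above it. The direction of the family relative to 0 thus depended on the scaling, while its place above the median gene was the same in all 17 settings. With a smooth trend on exon length and GC content taken out of every library, here called the length and GC correction, the family median was 0.18, with 12 rises (1185 of 10799 genes rose in that fit) and 3 falls (12.1% of genes fell).

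The protein genes of the cytosolic ribosome, which is built from other proteins, also lay above 0, by an amount that depended on the scaling. All 79 tested were higher in MSTN-KO, where 49.9% of all tested genes were. Of the 79, 62 rose, where 8.78% of all tested genes did, and the median of the 79 was 0.56. After scaling to 1000000 it was 0.27, against -0.04 for the MRP genes, and with quantile normalization it was 0.157, against 0.155 for the MRP genes. Their summed FPKM was between 170400 and 183500 in WT and between 229700 and 294000 in MSTN-KO. Muscle differentiation genes also moved between the groups. All 17 tested were lower in MSTN-KO, with a median of -2.65, where 5429 of all 10837 tested genes were lower. Of the 17, *Myh1*, *Myh3*, *Ckm* and *Mybph* reached 1 FPKM only in WT libraries, so they entered the fit only by being high there. The level of the 17 genes also differed within WT. Relative to the WT mean, their median was 0.45, 0.57 and -1.10 in WT replicates 1, 2 and 3. Their part in the MRP shift was not tested. Without WT replicate 3 the family median was 0.26, and 64 of 75 members were still higher.

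**Figure D3:**
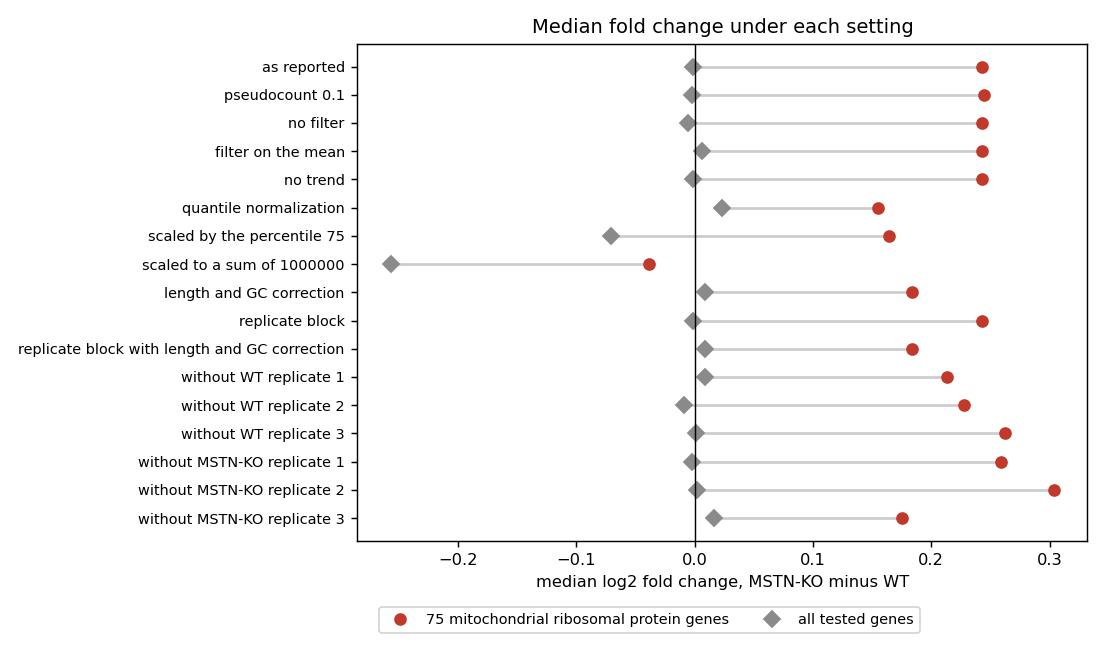
Median log2 fold change (MSTN-KO minus WT) of the 75 MRP genes (red circles) and of all tested genes (grey diamonds) under each setting. The circle lay right of the diamond in all 17 settings, and left of 0 only after scaling to a sum of 1000000 (-0.04).

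Members of the large subunit, which forms peptide bonds and holds the exit tunnel, numbered 50 by their place in the ribosome, *Mrps18a* and *Mrps30* included. Their median was 0.23, with 4 rises, 2 falls and 44 that did not pass. Of all tested genes, 8.78% rose and 8.96% fell, and the rises of the large subunit were near that share. The 24 members of the small subunit, which reads the mRNA, had a median of 0.27, with 4 rises and 20 that did not pass. The 44 members of bacterial descent and the 30 specific to mitochondria had medians of 0.24 each. The lowest median of the 4 combinations was 0.22, in the 21 large subunit members specific to mitochondria, and the highest was 0.31, in the 9 small subunit members specific to mitochondria. The difference between these groups was not tested.

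*Mrpl23*, a large subunit protein of bacterial descent whose bacterial counterpart sits at the exit tunnel, rose most. The WT values were 128, 130 and 113 FPKM, and the MSTN-KO values were 183, 166 and 227 FPKM, in the order of replicates 1, 2 and 3, which is kept below. Every MSTN-KO library was above every WT library. The difference was 0.62 on the log2 scale (SE 0.14, 1.54-fold, limma adjusted p = 0.0085). It lies on chromosome 7 of GRCm38 from 142532686 to 142540747. The call held in all 16 alternatives, scaling to 1000000 included (0.34, limma adjusted p = 0.042).

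*Mrps34*, a small subunit protein specific to mitochondria, was tight in WT, at 93.9, 92.4 and 89.5 FPKM, and stood at 138, 117 and 152 FPKM in MSTN-KO. The groups did not overlap, and MSTN-KO exceeded WT by 0.55 on the log2 scale (SE 0.13, limma adjusted p = 0.0107). After scaling to 1000000 its adjusted p was 0.0593. Its exons share 1309 bases with *Mapk8ip3* on the other strand and 763 bases with *Nme3* on its own strand, so reads there cannot be assigned with certainty. *Mrps15*, whose bacterial counterpart binds the small subunit rRNA, was at 59.5, 79.3 and 84.7 FPKM in WT and at 110, 94.7 and 129 FPKM in MSTN-KO. The difference was 0.58 on the log2 scale (SE 0.16, limma adjusted p = 0.024), with a wide spread in WT and no overlap.

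The other 5 genes that rose had log2 fold changes between 0.37 and 0.50. *Mrpl24*, of bacterial descent, was at 55.6, 60.2 and 56.5 FPKM in WT and at 83.0, 68.9 and 94.0 FPKM in MSTN-KO (0.50, limma adjusted p = 0.0231), and shares 594 exon bases with *Rrnad1* on the other strand. *Mrps35* and *Mrps26*, both specific to mitochondria, had log2 fold changes of 0.48 each. *Mrps35* went from 32.7 ± 2.75 to 46.1 ± 4.82 FPKM (SD, n = 3), and *Mrps26* from 20.6, 17.5 and 19.1 FPKM in WT to 28.3, 23.1 and 29.5 FPKM in MSTN-KO. *Mrpl14*, a protein of bacterial descent at the subunit interface, went from a mean of 273 FPKM to 369 ± 41.3 FPKM (0.43), and only *Mrpl52* and *Mrps21* had a higher mean FPKM. *Mrpl4* had the smallest called rise, from 73.8 ± 5.14 to 95.9 ± 5.53 FPKM (0.37, limma adjusted p = 0.0466). All 8 genes were higher in 3 of 3 MSTN-KO libraries than in any WT library.

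Most of these calls depended on which libraries were in the fit. *Mrpl23* and *Mrps34* passed without any 1 of the 6 libraries, and the other 6 each lost the call without at least 1. Without WT replicate 2, 3 members rose, where 3.92% of all genes tested did, and without WT replicate 3, 5 did, where 5.59% of all genes tested did. Without MSTN-KO replicate 1 or MSTN-KO replicate 3, only *Mrpl23* and *Mrps34* rose (2 members), where 4.73% and 5.39% of all genes tested did. Without MSTN-KO replicate 2, 15 of 75 members rose, against 1184 of 10806 genes, namely the 8 above and *Mrpl2*, *Mrpl21*, *Mrpl28*, *Mrpl37*, *Mrpl58*, *Mrps18b* and *Mrps28*. *Mrpl32* and *Mrpl40* fell in each of these fits.

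**Figure D4:**
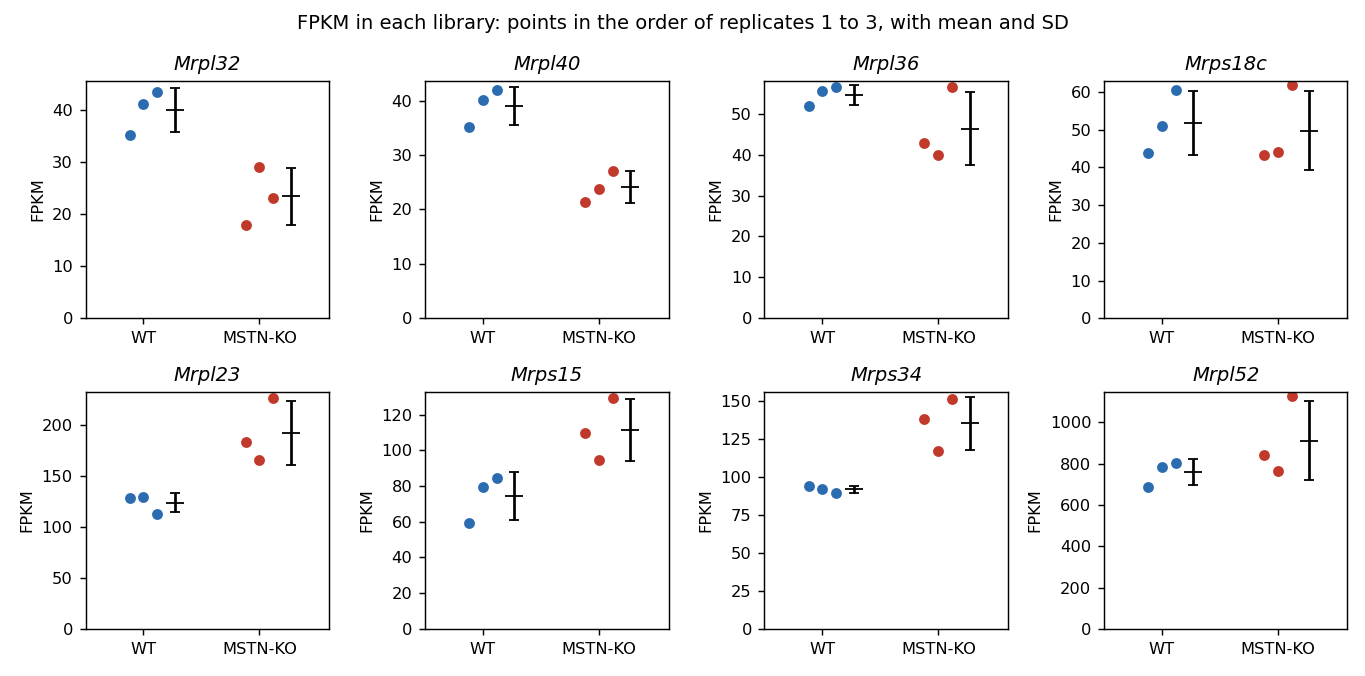
FPKM of 8 MRP genes in each library, with points in the order of replicates 1, 2 and 3 and the mean and SD of 3 libraries as bars, on axes that start at 0. *Mrpl32* and *Mrpl40* lay lower in every MSTN-KO library, *Mrpl23*, *Mrps15* and *Mrps34* higher, and *Mrpl36*, *Mrps18c* and *Mrpl52* overlapped.

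Of the 75 members, 11 had a lower mean log2 value in MSTN-KO, against the family. They were *Mrpl32*, *Mrpl40*, *Mrpl1*, *Mrpl36*, *Mrpl44*, *Mrps30*, *Mrps36*, *Mrps27*, *Mrps18c*, *Mrps16* and *Mrpl3*, and only *Mrpl32* and *Mrpl40* passed the test. Both were lower in every MSTN-KO library than in any WT library, and they were the only members that were.

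*Mrpl32*, a zinc-binding large subunit protein that is cut by the m-AAA protease of mitochondria before it joins the ribosome, was at 35.2, 41.1 and 43.4 FPKM in WT and at 18.0, 29.0 and 23.1 FPKM in MSTN-KO. The difference was -0.77 on the log2 scale (SE 0.17, limma adjusted p = 0.00699), a level of 0.588 relative to WT. It fell in all 16 alternatives, with log2 fold changes from -0.93 to -0.60 when 1 library was left out and -0.63 with the length and GC correction. The gene lies on the minus strand of chromosome 13 of GRCm38, from 14608184 to 14613165.

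*Mrpl40*, a large subunit protein specific to mitochondria, was at 35.2, 40.1 and 41.9 FPKM in WT and at 21.5, 23.8 and 27.2 FPKM in MSTN-KO. The values of a group kept close together, and the difference was -0.68 on the log2 scale (SE 0.14, limma adjusted p = 0.00453), a level of 0.626 relative to WT. It fell in all 16 alternatives, with -0.76 to -0.60 when 1 library was left out and -0.79 with the length and GC correction. The gene lies on the minus strand of chromosome 16, from 18872018 to 18876862.

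The promoters of these 2 genes and of *Mrpl23*, the largest rise, are shown because their transcripts moved in opposite directions. Each window is RefSeq sequence of GRCm38.p6, from 250 bases before to 50 bases after a RefSeq start, printed 5′ to 3′ on the strand of the gene. Capitals mark the letters searched, here only the NRF1 letters GCATGCGC or, on the other strand, GCGCATGC.
*Mrpl32*, chr13:14612988-14613287, minus strand: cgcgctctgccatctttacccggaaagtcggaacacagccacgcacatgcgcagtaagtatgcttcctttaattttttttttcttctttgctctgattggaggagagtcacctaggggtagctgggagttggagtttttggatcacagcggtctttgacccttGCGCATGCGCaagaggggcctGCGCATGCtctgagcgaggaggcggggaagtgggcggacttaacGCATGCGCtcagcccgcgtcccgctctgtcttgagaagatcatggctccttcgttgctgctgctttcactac
*Mrpl40*, chr16:18876588-18876887, minus strand: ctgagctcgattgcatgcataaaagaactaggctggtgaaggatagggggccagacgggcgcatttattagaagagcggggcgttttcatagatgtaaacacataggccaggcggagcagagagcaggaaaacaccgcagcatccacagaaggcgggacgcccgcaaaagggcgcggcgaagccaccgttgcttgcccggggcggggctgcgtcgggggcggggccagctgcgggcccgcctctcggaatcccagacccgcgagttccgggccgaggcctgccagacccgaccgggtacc
*Mrpl23*, chr7:142532782-142533081, plus strand: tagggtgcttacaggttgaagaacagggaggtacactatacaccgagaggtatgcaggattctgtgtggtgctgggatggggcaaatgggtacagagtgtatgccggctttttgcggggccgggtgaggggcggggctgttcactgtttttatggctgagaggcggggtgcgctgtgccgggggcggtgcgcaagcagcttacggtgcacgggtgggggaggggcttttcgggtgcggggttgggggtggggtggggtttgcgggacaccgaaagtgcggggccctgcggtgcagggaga

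NRF1 and the ETS factor GABP are transcription factors known for driving nuclear genes of mitochondrial proteins. The *Mrpl32* window held 4 NRF1 matches, 2 of which overlap on opposite strands, and the windows of *Mrpl40* and *Mrpl23* held no match to any of the 5 motifs. The *Mrpl23* window begins at 142532782, inside the gene as annotated in GENCODE from 142532686. The *Mrpl40* window ends at 18876887 and lies mostly inside its gene, whose annotated start is 18876862. The sequence further before these annotated starts was not searched. Promoters were found for 66 of 75 members, in 72 windows of 300 bases. Searched on both strands, the NRF1 letters GCATGCGC were in 9.72% of these windows and in 5.38% of the 10849 windows of tested genes. The ETS letters CCGGAAGT were in 15.3% and 8.52%, the YY1 letters AAGATGGCG in 11.1% and 3.23%, the E-box CACGTG in 9.72% and 9.97%, and the ZNF143 letters ACTACAATT in 0% and 0.774%. Over all 32851 windows in the table the shares were 2.71%, 3.89%, 1.40%, 7.15% and 0.393%. Members with NRF1 letters had a median of 0.23 and those without 0.24, and the medians were 0.25 and 0.23 for ETS and 0.24 with and without YY1. The 5 genes with an E-box had a median of 0.06, against 0.24 without. A match of letters is no evidence of binding.

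The 2 genes that fell stood among neighbours that were lower too. For each member, up to 5 tested genes on either side along the chromosome were taken. All 10 neighbours of *Mrpl32* were lower in MSTN-KO, 8 passed the test, and their median log2 fold change was -0.76, against -0.77 for *Mrpl32* itself. All 10 neighbours of *Mrpl40* were lower, 9 passed the test, and their median was -0.73, against -0.68 for *Mrpl40*. Of all 10837 tested genes, 5429 were lower and 8.96% fell. The 338 other tested genes of chromosome 16 had a median of -0.08, and 57.4% of them were lower. Outside *Mrpl32* and *Mrpl40*, no member had more than 5 neighbours that fell. *Psma2*, a proteasome subunit gene whose annotated start lies 75 bases from that of *Mrpl32* on the opposite strand, fell by 0.65 on the log2 scale (limma adjusted p = 0.00476). *Hira*, a histone chaperone gene whose annotated start lies 175 bases from that of *Mrpl40* on the opposite strand, fell by 0.62 (limma adjusted p = 0.00593). *Ufd1* and *Cdc45* on the other side of *Mrpl40* fell by 0.74 each, and *Tbce* and *Ggps1* beside *Mrpl32* fell by 0.88 and 1.08.

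**Figure D5:**
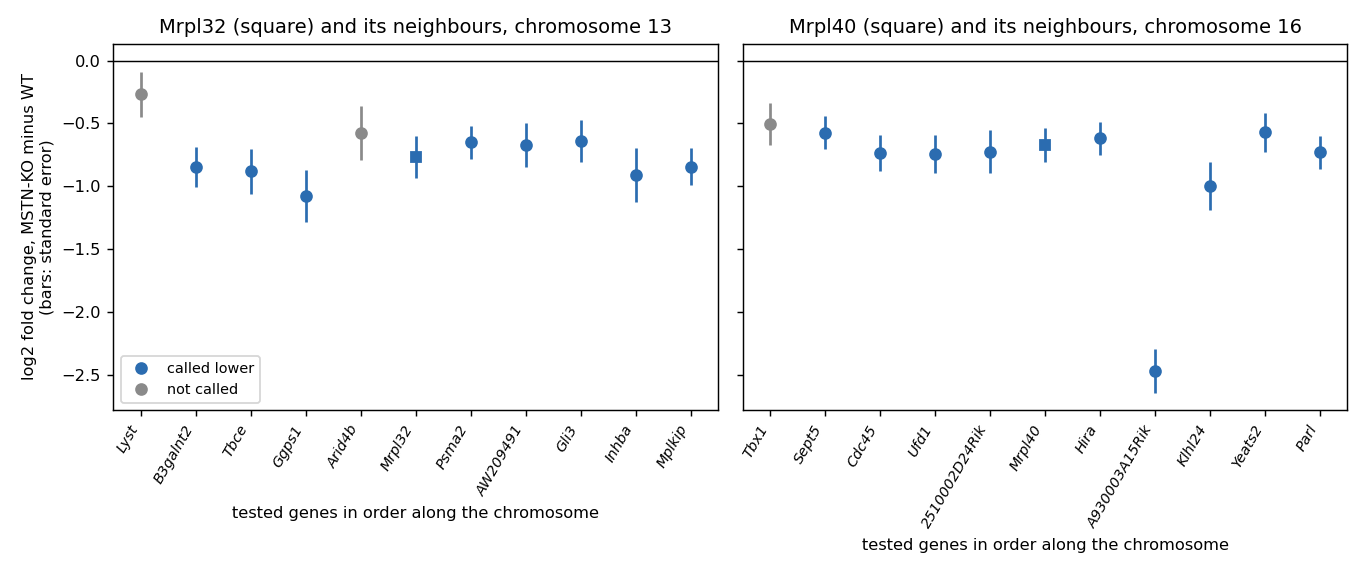
Log2 fold change (MSTN-KO minus WT) with the standard error of *Mrpl32* and *Mrpl40* (squares) and of the 5 tested genes on either side, in order along chromosomes 13 and 16. Blue points fell and grey points did not pass the test, and all 20 neighbours lay below 0.

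Chromosome 13 held 5 members, *Mrpl32*, *Mrpl36*, *Mrps30*, *Mrps36* and *Mrps27*, and all 5 were lower in MSTN-KO, with a median of -0.16. The 405 other tested genes of chromosome 13 had a median of -0.35, and 81.7% of them were lower. Chromosomes 1 and 14, with medians of -0.25 and -0.29 over their other tested genes, held *Mrpl44* and *Mrps16*. These were the only members below 0 there, since 4 of 5 on chromosome 1 (median 0.06) and 2 of 3 on chromosome 14 (median 0.24) were higher, where 79.8% and 82.4% of the other genes were lower. On the remaining chromosomes 4 of 62 members were lower, namely *Mrpl40* on chromosome 16, *Mrpl1* and *Mrps18c* on chromosome 5 and *Mrpl3* on chromosome 9. Across all 75 members, Spearman's rho between the fold change of a member and the median of its neighbours was 0.569, where the points share libraries and adjacent members share neighbours. On chromosomes 11 and 17, which held 10 and 8 members, all 18 were higher, with medians of 0.28 and 0.36. The other tested genes of these 2 chromosomes had medians of 0.02 and 0.14, and 46.0% and 33.0% of them were lower. The part of chromosomal place in these values was not tested, and genomic DNA was not analysed here.

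Of the 5 members on chromosome 13, all but *Mrpl32* lay above the median of their own neighbours. *Mrpl36*, a small zinc-binding large subunit protein, was at 51.9, 55.5 and 56.5 FPKM in WT and at 42.9, 39.9 and 56.5 FPKM in MSTN-KO. MSTN-KO replicate 3 was level with WT, and the log2 fold change of -0.25 did not pass (limma adjusted p = 0.251), except after the length and GC correction (-0.34, limma adjusted p = 0.0197) and after scaling to 1000000 (-0.53, limma adjusted p = 0.00855). *Mrps27*, a small subunit protein with RNA-binding repeats, was at 36.5, 35.6 and 33.7 FPKM in WT and at 28.5, 33.9 and 38.6 FPKM in MSTN-KO, with a median of -0.54 over its 10 neighbours and a log2 fold change of -0.07 of its own. *Mrps30*, which despite its name sits in the large subunit, was at 20.2 ± 4.15 FPKM in WT and 17.8 ± 3.03 FPKM in MSTN-KO. *Mrps36*, which is a part of 2-oxoglutarate dehydrogenase and not of the ribosome, was at 81.1 to 103 FPKM in WT and at 82.4, 73.0 and 95.4 FPKM in MSTN-KO. After scaling to 1000000, *Mrps36*, *Mrpl44* and *Mrps16* fell as well.

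*Mrpl44*, a large subunit protein with a fold like that of RNase III, was at 19.6, 21.7 and 21.7 FPKM in WT with 1 MSTN-KO library above them and the others at 17.7 and 16.3 FPKM (-0.17 on the log2 scale, limma adjusted p = 0.433). *Mrpl1*, the member with the lowest mean FPKM, had a log2 fold change of -0.26 with a WT spread from 3.70 to 5.96 FPKM (limma adjusted p = 0.316). *Mrps16* and *Mrpl3* were within 0.05 of 0 on the log2 scale, at -0.04 and -0.01.

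Levels differed far more between members than between groups. FPKM is per length of exon, but the lengths used are not given in the sources. Exons of 31 members also overlap another annotated gene, so the order of levels is approximate. The median member was at 60.3 FPKM over the 6 libraries. *Mrpl52*, a large subunit protein specific to mitochondria, was highest at 836 FPKM. It was at 690, 784 and 806 FPKM in WT and at 843, 764 and 1127 FPKM in MSTN-KO, where the groups overlapped (0.25 on the log2 scale, limma adjusted p = 0.297). *Mrps21*, *Mrpl14*, *Mrpl54* and *Mrpl20* followed at 356, 321, 209 and 203 FPKM, and the last pair overlapped in their values. *Mrpl1*, *Mrpl35* and *Mrpl47* were lowest, at 4.20, 5.84 and 6.96 FPKM.

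The 3 paralogs *Mrps18a*, *Mrps18b* and *Mrps18c*, which occupy different places in the ribosome, had log2 fold changes of both signs, and none passed the test. *Mrps18a* was at 86.4, 76.2 and 82.2 FPKM in WT and at 95.9, 78.5 and 107 FPKM in MSTN-KO (log2 fold change 0.19, limma adjusted p = 0.358). *Mrps18b* was at 89.4, 81.9 and 94.0 FPKM in WT and at 111, 94.7 and 124 FPKM in MSTN-KO, with no overlap (0.31, limma adjusted p = 0.128). *Mrps18c* was at 43.8, 50.8 and 60.6 FPKM in WT and at 43.3, 44.1 and 61.8 FPKM in MSTN-KO (-0.06, limma adjusted p = 0.817). By its place, *Mrps18c* was counted as of bacterial descent and the other two as specific to mitochondria. The difference between the paralogs was not tested.

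Of the members chosen by role, 5 more did not pass the test. *Mrpl12* and *Mrpl10*, which form the stalk that recruits translation factors, had log2 fold changes of 0.20 and 0.26, and *Mrpl10* was higher in every MSTN-KO library, at 69.9 to 79.1 FPKM against 59.1 to 66.0 FPKM in WT. *Mrps12*, at the decoding site, was at 87.7, 90.8 and 86.2 FPKM in WT and at 114, 97.3 and 115 FPKM in MSTN-KO (0.30, limma adjusted p = 0.108). *Mrpl58*, a peptidyl-tRNA hydrolase built into the large subunit, was at 56.2 ± 3.82 and 71.7 ± 10.2 FPKM (0.34, limma adjusted p = 0.0966). *Mrpl45*, on the side of the ribosome that faces the inner membrane, was at 33.6 ± 5.25 and 34.8 ± 1.45 FPKM (0.06, limma adjusted p = 0.789).

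The subunits of the same ribosome without an MRP symbol numbered 5, of which 2 rose, where 8.78% of all tested genes did. *Dap3*, a GTP-binding small subunit protein, rose from 64.8, 63.0 and 61.1 FPKM in WT to 81.3, 80.5 and 98.2 FPKM in MSTN-KO (log2 fold change 0.45, limma adjusted p = 0.0249). *Gadd45gip1* rose too, by 0.41 (limma adjusted p = 0.0482). *Aurkaip1* (0.16), *Ptcd3* (-0.11) and *Chchd1* (-0.23) did not pass.

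The calls in the short lists below stand beside 8.78% of all tested genes that rose and 8.96% that fell. Of 26 tested assembly factors, 0 rose and 1 fell in the limma fit, with a median of 0.13. The gene that fell was *Mterf3*, which binds mitochondrial nucleic acid, at 8.99, 11.4 and 12.2 FPKM in WT and at 5.35, 6.36 and 5.74 FPKM in MSTN-KO (-0.79, limma adjusted p = 0.00387). Of 14 translation factors and mRNA partners, *Tsfm*, the elongation factor that recycles *Tufm*, rose by 0.43 on the log2 scale (limma adjusted p = 0.0295) and the other 13 did not pass, with a median of 0.152. With quantile normalization the medians were 0.126 for the assembly factors and 0.202 for the translation factors, and their difference from the MRP genes was not tested. Of 17 mitochondrial aminoacyl-tRNA synthetases, *Vars2* (0.58) and *Tars2* (0.51) rose, *Yars2* (-0.60) fell and 14 did not pass, with a median of 0.02. None of 10 genes of mtDNA transcription and replication and none of 9 regulators of mitochondrial biogenesis passed in the limma fit, and their medians were -0.01 and 0.03. The 10 tested mtDNA-encoded genes had a median of -0.05 and none passed, with summed FPKM from 33330 to 51340 in WT and from 26620 to 60940 in MSTN-KO.

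Members with a higher GC content had larger fold changes. Spearman's rho over the 75 members was 0.414 with GC content and -0.106 with exon length, and over 10784 tested genes it was 0.298 and -0.225. With mean FPKM it was 0.392 over the members and 0.293 over the 10784 genes, so genes of higher FPKM also had larger fold changes. The median fold change was 0.22, 0.23 and 0.31 in the 25 members lowest in GC content, the 25 in the middle and the 25 highest. With the length and GC correction these medians were 0.29, 0.16 and 0.18, and rho was -0.164 with GC content and 0.429 with exon length. The part of GC content and exon length in the family's shift was tested only by that correction, which lowered the median from 0.24 to 0.18. The part of the level of a gene was not tested. Exons of 31 members overlap those of another annotated gene, and whether the authors' counting used strand is not given in the sources used here.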

How the data were processed

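C2C12 RNA-seq libraries, 3 of WT and 3 of MSTN-KO, were grouped by their titles. The authors deposited FPKM per gene from Illumina sequencing, 1 library per file, without pooling. The submitters' processing notes list Bowtie 0.12.2 and mm8, and the program that made the FPKM values, the annotation and any gene filter are not given in the sources used here. FPKM divides by all fragments mapped, so a rise of abundant genes lowers the values of the rest. The depth is unknown, and no counting error is given.

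Symbols and positions came from GENCODE M21 (GRCm38) by identifier, of which 14445 of 14548 matched exactly. Another build in the authors' processing would leave the coordinates printed here those of GRCm38. A suffix was dropped from 33 identifiers. Subunits, bacterial descent and pathway lists were set by hand, and members and lists were chosen with earlier results of these data known.

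Genes that reached 1 FPKM in any library entered a limma 3.58.1 fit of log2(FPKM + 1) in R 4.3.3 (eBayes with a trend, 1 coefficient for the group, Benjamini-Hochberg adjustment over all tested genes, threshold 0.05). Alternatives tried were no filter, a filter on the mean, a pseudocount of 0.1, no trend, quantile normalization, scaling (percentile 75, or a sum of 1000000), a length and GC correction with mgcv 1.9.3, a replicate block alone or with that correction, and leaving out each library. The fit was tested on simulated data. Named were the members against the family's direction, those that rose, the 5 highest, the 3 lowest, 12 chosen by role, and the list genes that passed. Other steps used Python 3.11.15 with pandas 2.3.3, scipy 1.17.1 and matplotlib 3.10.9. Protein sequences were not used here.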

Additional observations from a re-analysis of the deposited data

How the results depend on the processing

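The family median stayed between 0.155 and 0.304 in 15 of 16 alternatives, and scaling to a sum of 1000000 reversed it to -0.039, together with the median of all genes (-0.257). The 8 rises became 5 without a filter, 5 with quantile normalization and 1 after scaling to 1000000, where 4.95%, 8.96% and 3.25% of all genes rose. After that scaling 6 members fell in place of 2, while 21.9% of all genes fell. Leaving out 1 library gave 2 to 15 rises and 2 falls, against backgrounds of 423 to 1184 rises. *Mrpl32* and *Mrpl40* fell in all 16 alternatives. Among the 32 named members, those listed next changed sign, none with an adjusted p under 0.05 after the change. Most alternatives did this to members near 0. Scaling to 1000000 also did it to members near the family median, such as *Mrpl52* (0.245 before it) and *Mrpl10* (0.259), and to members not named here. Quantile normalization put *Mrpl20* at -0.093, and scaling by the percentile 75 put *Mrpl47* at -0.054, *Mrpl20* at -0.024 and *Mrpl45* at -0.019. Scaling to 1000000 put *Mrpl47* at -0.238, *Mrpl20* at -0.229, *Mrpl45* at -0.220, *Mrpl54* at -0.104, *Mrps18a* at -0.095, *Mrpl12* at -0.089, *Mrpl52* at -0.041 and *Mrpl10* at -0.024. The length and GC correction, with and without the block, put *Mrps30* at 0.030, *Mrpl3* at 0.065, *Mrpl45* at -0.001 and *Mrpl54* at -0.018. With 1 library left out, the ranges were -0.113 to 0.152 for *Mrpl47*, -0.008 to 0.181 for *Mrpl45*, -0.033 to 0.124 for *Mrpl20*, -0.227 to 0.055 for *Mrps18c*, -0.084 to 0.087 for *Mrpl3*, -0.176 to 0.038 for *Mrps27* and -0.185 to 0.099 for *Mrps16*. The cause was not tested. Replicate numbers are shared by WT and MSTN-KO in the labels. Deviations of same-numbered libraries from their group means correlated at -0.0153, -0.128 and -0.142. These values gave no sign of pairing by number, but with 3 libraries per group they cannot exclude it. With the replicate block 7 members rose, where 8.66% of all tested genes did, and 2 fell, where 9.24% did. With the block and the length and GC correction 10 rose and 3 fell, where 9.57% and 10.4% of all genes tested did. The number of fragments is unknown, which limits the precision of the least abundant members.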
